A study of Mus musculus with 39 samples.

Results

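The genes described here are 8 chemokine genes whose products attract lymphocytes: Cxcl9, Cxcl10, Ccl5, Ccl3, Ccl4, Cxcl16, Cx3cl1 and Cxcl12. They were chosen by symbol and are 8 of the 39017 genes in the count table, and each was found. RNA was sequenced from tumour cells sorted out of pancreatic tumours that had grown for 3 weeks under the skin of untreated C57BL/6 mice. The library titles begin with yfp, the fluorescent protein read here as the mark used for the sort. The labels sort the implanted tumour cell clones by T cell phenotype. T cell low was given to 18 libraries of 9 clones, T cell high to 14 libraries of 6 clones, and intermediate to 4 libraries of 2 clones. A further 3 libraries of 3 clones carried no class and entered no comparison between classes. The question was which genes differ in expression by class. A clone is named by a number, read as its parent line, followed by its clone number, so that yfp_6499c3 and yfp_6499c4 are read as sister clones. The number that ends each title is read as a tumour number. Sister clones may not be independent, and no label ties the libraries of one clone to separate animals.

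Chemokines are small secreted proteins that guide leukocytes along a gradient through G protein-coupled receptors. Cxcl9 and Cxcl10 bind CXCR3 on activated T cells and natural killer cells and are induced by interferon gamma. Ccl5, Ccl3 and Ccl4 are inflammatory chemokines made by T cells, macrophages and other leukocytes. Cxcl16, the ligand of CXCR6, and Cx3cl1, the ligand of CX3CR1, are made as membrane proteins that proteases can release. Cxcl12, the ligand of CXCR4, is a homeostatic chemokine that fibroblasts and endothelial cells produce in many tissues.

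Library totals ran from 7638130 to 103794674 counts, with a median of 34565903. Keratins and other epithelial markers summed to 4495 to 12598 CPM in the 20 heart-free libraries defined next, where CPM is a count divided by its library total and rescaled. The libraries were of 2 kinds. In 20 libraries of 17 clones, 4 genes of heart muscle (Myh6, Myh7, Myl2, Mb) summed to at most 0.235 CPM, and these are called heart-free. In the other 19, called heart-bearing, it was 152 to 4893 CPM. Heart-free libraries were from 8 low clones, 6 high clones, both intermediate clones and 1 clone without a class. Markers of leukocytes were present in every library. The pan-leukocyte sum of 8 genes was 30.4 to 693 CPM in heart-free and 182 to 778 CPM in heart-bearing libraries. In bulk samples, fewer cells of a type and less RNA per cell cannot be told apart. The 6 heart-bearing libraries with the highest heart sums, 4593 to 4893 CPM, were of 4 high and 2 low clones. They were 4 of the 6 high and 2 of the 9 low heart-bearing libraries. In them Cxcl12 was at 60.9 to 70.0, Cx3cl1 at 54.1 to 64.1 and Cxcl16 at 45.8 to 57.3 CPM. Relative to their level the scarcer members spread more there, with Cxcl9 at 1.88 to 2.98, Cxcl10 at 2.39 to 3.94, Ccl3 at 6.09 to 11.3, Ccl4 at 3.02 to 5.06 and Ccl5 at 0.948 to 2.33 CPM. That set was picked after its values were seen.

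The CXCR3 ligand genes lie side by side on the minus strand of chromosome 5. Per GENCODE M21 on GRCm38, Cxcl9 (ENSMUSG00000029417) spans chr5:92321347-92328079 and Cxcl10 (ENSMUSG00000034855) spans chr5:92346638-92348889, with 18559 bases between them. Their upstream sequences are shown because the neighbours share a receptor and inducer. Both are the 250 bases before the start in the RefSeq table, build GRCm38.p6, minus strand, read 5′ to 3′. Cxcl9 lies at chr5:92328080-92328329 and Cxcl10 at chr5:92348890-92349139. Capitals mark matches to a motif.
Cxcl9: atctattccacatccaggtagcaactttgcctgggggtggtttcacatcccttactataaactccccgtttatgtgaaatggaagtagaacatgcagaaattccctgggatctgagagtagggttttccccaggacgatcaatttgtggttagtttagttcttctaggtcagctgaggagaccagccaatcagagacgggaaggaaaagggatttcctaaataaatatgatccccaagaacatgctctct
Cxcl10: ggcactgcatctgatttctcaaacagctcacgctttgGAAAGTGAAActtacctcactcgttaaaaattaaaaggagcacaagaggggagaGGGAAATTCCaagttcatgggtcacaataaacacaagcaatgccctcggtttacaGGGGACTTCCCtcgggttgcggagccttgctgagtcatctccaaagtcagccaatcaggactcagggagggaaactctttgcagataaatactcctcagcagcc
The searches were made on both strands: GAAANNGAAA (the interferon-stimulated response element), TTCNNNGAA (the gamma-activated site) and the NF-kB motif. The NF-kB motif was GGG, then A or G, any 2 bases, 2 bases of C or T, and CC. Cxcl10 held the match GAAAGTGAAA at positions -213 to -204 from the start. It also held 3 NF-kB matches, GGGAAATTCC at -159 to -150, GGGGACTTCC at -104 to -95 and GGGACTTCCC at -103 to -94, of which the last 2 overlap. Cxcl9, Ccl3, Cx3cl1 and Cxcl12, the other members in the table, held none of the motifs in this window. Such exact patterns can miss variant sites, so a window without a match may still hold one. Over 32841 windows of the same length, 2.98% held the response element, 7.02% the gamma-activated site and 7.25% the NF-kB motif. Cxcl16, Ccl4 and Ccl5 were not in the table.

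Cxcl16 and Cx3cl1 were the most abundant members per kilobase of exon. Over the 20 heart-free libraries the medians were 22.5 CPM per kb for Cxcl16 and 19.7 for Cx3cl1. Next came Cxcl10 at 2.59, Cxcl9 at 1.41 and Ccl3 at 1.36 CPM per kb. Ccl4 was at 0.717, Cxcl12 at 0.182 and Ccl5 at 0.1002 CPM per kb. Cxcl16 ran from 12.6 to 49.8 and Cx3cl1 from 12.3 to 77.5 CPM per kb, so the top pair overlapped. The lower members overlapped as well, since Cxcl9 reached 12.5, Ccl3 12.2, Cxcl10 9.44, Cxcl12 7.97 and Ccl4 5.08 CPM per kb. In heart-bearing libraries Cxcl16 (18.7) and Cx3cl1 (15.5) were again first by median CPM per kb. They were followed there by Ccl3 at 9.15, Cxcl12 at 7.45, Ccl4 at 4.99, Cxcl10 at 2.55, Ccl5 at 1.55 and Cxcl9 at 0.989.

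**Figure D1:**
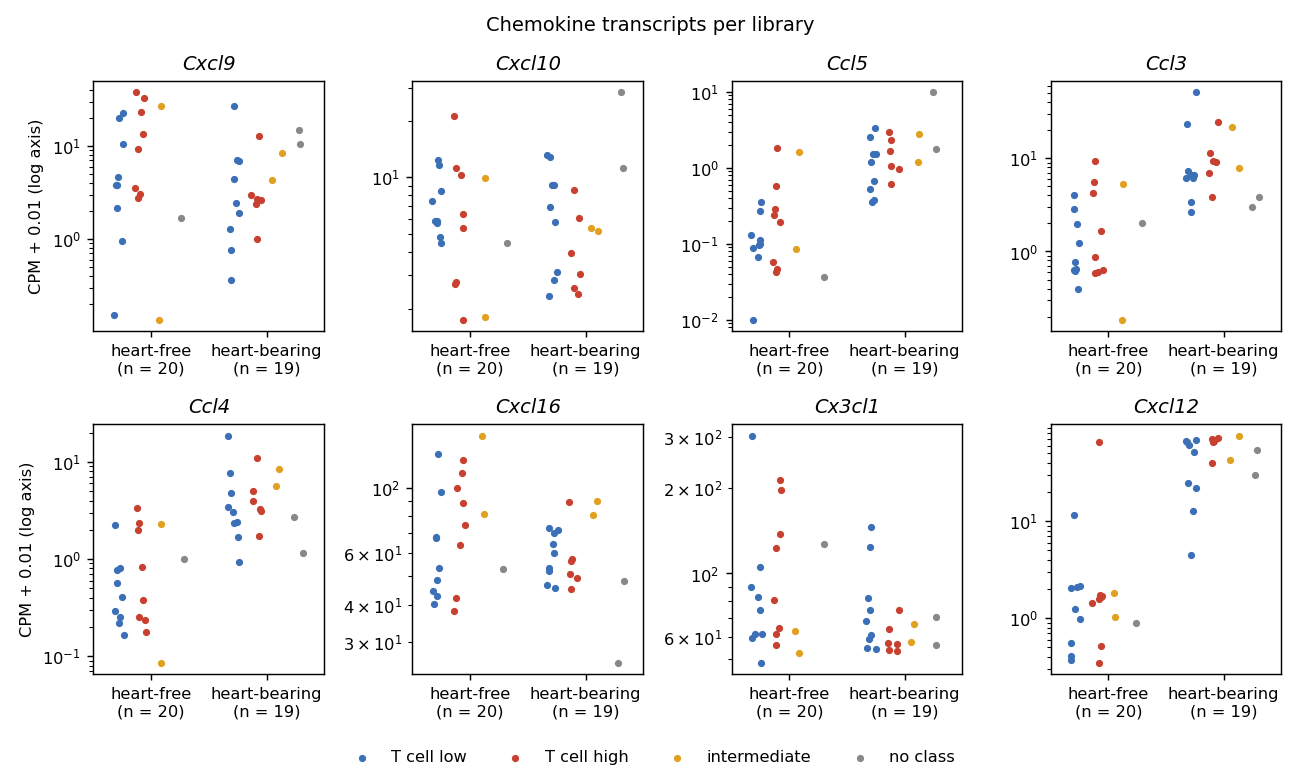
CPM + 0.01 of each chemokine gene (log axis) in the 20 heart-free and 19 heart-bearing libraries; each point is 1 library, coloured by T cell class. Cxcl12 reaches 65.1 CPM in 1 heart-free library, with the rest at 11.5 CPM or below, while heart-bearing libraries run from 4.46 to 76.0 CPM.

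Cxcl9 had the widest spread of the 8 genes among clones. Its level in heart-free libraries of low clones was 0.142 CPM at the lowest, 3.83 at the median and 22.7 at the highest (n = 9). In high clones it was 2.77, 11.4 and 37.6 CPM (n = 8). These medians, and the class medians below, are over libraries, so a clone with more libraries weighs more. The lowest of all 20 was 0.125 CPM in the intermediate clone yfp_6422c5, and the other intermediate clone yfp_7160c5 had 27.1 CPM. The classes overlapped, and libraries of 1 clone also stood far apart. The 3 heart-free libraries of yfp_2838c3 (high) had 9.34, 3.00 and 37.6 CPM, a span of 12.5-fold, and the 2 of yfp_2699c4 (low) had 22.7 and 3.83 CPM. The yfp_2838c3 library with 37.6 CPM also had a pan-leukocyte sum of 639 CPM, against 62.5 and 58.0 CPM in its partners, and its part in the Cxcl9 level was not tested. Over 17 heart-free clones the SD of log2 CPM was 2.29 for Cxcl9, against a median of 0.457 over all genes kept.

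Cxcl10 was steadier, with an SD of 0.85 on the same scale. Heart-free low libraries had 4.43, 5.85 and 12.3 CPM (lowest, median, highest), and high libraries 1.73, 5.85 and 21.3 CPM. Both medians were 5.85 CPM, and the high libraries spread wider on either side. The 1.73 CPM of yfp_6620c1 was the lowest of all 39 libraries. The library without a class yfp_6883c1, which is heart-bearing, had 28.3 CPM, the highest of all 39.

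The most like genes to Cxcl9 over the 17 heart-free clones, by Pearson r of log2 CPM, were Tap1 (r = 0.95), Psmb9 (r = 0.95) and Iigp1 (r = 0.95). Tap1 transports peptides for antigen presentation and Psmb9 is an immunoproteasome subunit. For Cxcl10 they were Gbp6 (r = 0.85), Ddx58 (r = 0.85) and Gbp2 (r = 0.82); guanylate-binding proteins and the RNA sensor Ddx58 are interferon-induced. These are ranks over the kept genes, passing over Riken, Gm, ribosomal protein, mitochondrial, pseudogene and similar symbols, and carry no p. Cxcl9 and Cxcl10 themselves had r = 0.63 and Spearman rho = 0.64 (permutation p = 0.00689 and 0.00667, 2-sided; adjusted over 28 member pairs, 0.0965 and 0.0934). The r was 0.55 without the 2 clones farthest from the median. This relation was added after seeing the data and did not pass.

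Ccl3 (ENSMUSG00000000982) and Ccl4 (ENSMUSG00000018930) lie 13229 bases apart on chromosome 11, at chr11:83647844-83649355 on the minus strand and chr11:83662584-83664683 on the plus strand. Heart-free low libraries had Ccl3 at 0.388, 0.767 and 4.06 CPM (lowest, median, highest), and high libraries at 0.581, 1.27 and 9.32 CPM. Ccl4 was at 0.155, 0.395 and 2.21 CPM in low, and at 0.166, 0.596 and 3.36 CPM in high libraries. For both genes the highest high library was yfp_6620c1 and the highest low library yfp_6499c3, and the classes overlapped. The 2 genes moved together over the 17 clones, at r = 0.98 and rho = 0.98. The permutation p, adjusted over the same set of member pairs as for Cxcl9 and Cxcl10, was 0.00028. It came from the smallest p that 100000 resamples can give, 1e-05. Like that of Cxcl9 and Cxcl10, the relation of Ccl3 and Ccl4 was added after seeing the data. Nearest to Ccl3 besides Ccl4 were Srgn (r = 0.93), the proteoglycan serglycin of leukocyte granules, and Osm (r = 0.93), the cytokine oncostatin M. Nearest to Ccl4 besides Ccl3 were Srgn (r = 0.96) and Arg1 (r = 0.93), the arginase found in many tumour macrophages.

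Both genes followed the leukocyte markers. Over the 17 heart-free clones, log2 Ccl4 against the log2 pan-leukocyte sum had r = 0.87 and rho = 0.82 (2-sided permutation p = 2e-05 and 8e-05; adjusted over 24 relations, 0.00048 and 0.00132). Ccl3 had r = 0.82 and rho = 0.82 (adjusted 0.00096 and 0.00132). Without the 2 clones farthest in the marker sum, r was 0.84 and 0.77. Cxcl9 had r = 0.27 and Cxcl10 r = -0.06 with the same sum, and neither passed. The sum of the 9 T cell markers was 0.574 to 13.9 CPM in heart-free libraries. Of these markers Cd4 and Lck were at 0 in none of the 20, Cd2 and Cd5 in 3 each, Cd3d in 5, Cd3e in 6, Cd3g in 7, Cd8a in 12 and Cd8b1 in 14. The pan-leukocyte sum was 34.4 to 393 CPM in low and 43.5 to 639 CPM in high heart-free libraries.

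**Figure D2:**
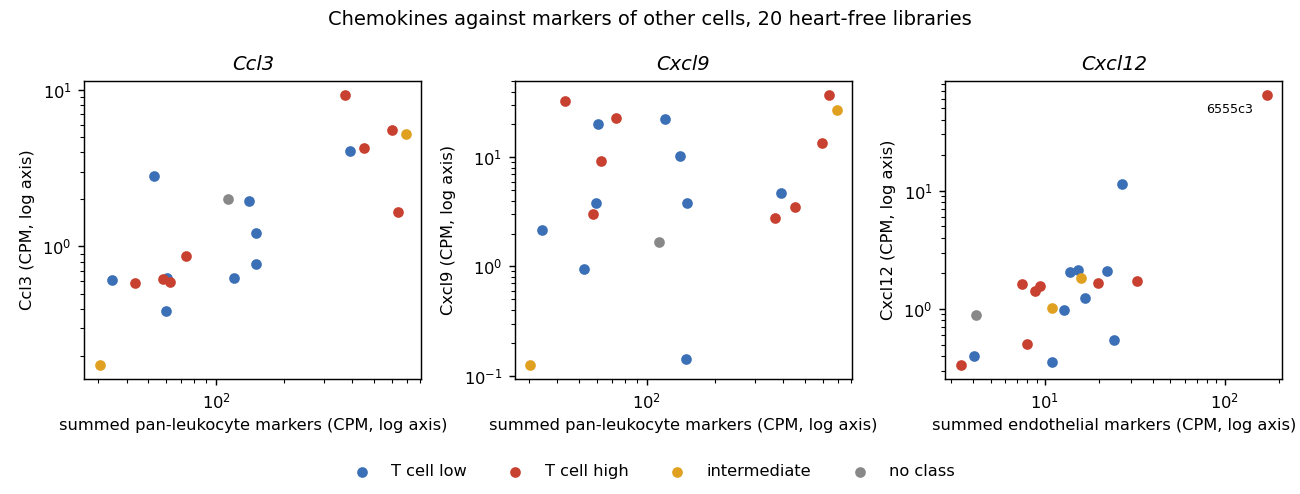
Ccl3 and Cxcl9 against the summed pan-leukocyte markers, and Cxcl12 against the summed endothelial markers, in the 20 heart-free libraries (both axes log, CPM). Ccl3 climbs with the leukocyte sum; for Cxcl12, yfp_6555c3 stands apart at 65.1 CPM.

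Ccl5 (ENSMUSG00000035042), at chr11:83525778-83530518 on the minus strand, had the lowest median per kb in heart-free libraries. In heart-free libraries of low clones it ran from 0 to 0.347 CPM with a median of 0.0897. The 0 was in yfp_2699c4 tumour 3, where 3 counts, the upper limit a count of 0 allows, would be 0.0790 CPM. High libraries ran from 0.0321 to 1.81 CPM with a median of 0.209. The 1.81 CPM belonged to yfp_6555c3, and the intermediate yfp_7160c5 had 1.58 CPM. Their pan-leukocyte sums were 599 and 693 CPM, beside a median of 116 CPM over the 20 heart-free libraries. Over the 17 heart-free clones Ccl5 against that sum had r = 0.56 and rho = 0.37. Neither passed (adjusted permutation p 0.0811 and 0.556). The r was 0.18 without the 2 farthest clones, and the part of the sum in these levels was not tested. The filter on low counts left Ccl5 out of the edgeR test of high against low clones in heart-free libraries. The genes most like Ccl5 over the 17 heart-free clones were Plekhg1 (r = 0.90), Qpct (r = 0.89) and Napsa (r = 0.89). Without yfp_6555c3, a choice made after seeing the data, they were P2rx5 (r = 0.86), Plekhg1 (r = 0.85) and Qpct (r = 0.85).

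Cxcl16 (ENSMUSG00000018920), at chr11:70453983-70459984 on the minus strand, varied least, with an SD of 0.55 log2 CPM over clones. Heart-free low libraries had 40.4, 53.5 and 129.9 CPM, and high libraries 38.0, 81.8 and 124.6 CPM. The intermediate clones had 81.6 and 150.4 CPM, the latter in yfp_7160c5, the highest of all. The sister clones yfp_6499c3 (low) and yfp_6499c4 (high) had 48.6 and 124.6 CPM in 1 heart-free library each. Their heart-bearing libraries had 64.2 and 56.5 CPM, with heart sums of 152 and 4718 CPM. The genes most like Cxcl16 were Stra6 (r = 0.91), a retinol receptor, P2ry2 (r = 0.88), a nucleotide receptor, and Axin2 (r = 0.87), a target and inhibitor of Wnt signalling.

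Cx3cl1 (ENSMUSG00000031778), at chr8:94772009-94782427 on the plus strand, had 48.5, 74.3 and 304 CPM in heart-free low libraries and 55.9, 101.7 and 213 CPM in high libraries. The 304 CPM was in yfp_6421c2, a low clone, whose heart-bearing library also had 146 CPM, the highest of its kind. In yfp_2838c3 (high) all 3 heart-free libraries were at 137 to 213 CPM. The highest heart-free values were thus in 2 clones of opposite class, and the classes overlapped. The median of 101.7 CPM counts yfp_2838c3 3 times. With heart-free libraries summed by clone, Cx3cl1 averaged 103 CPM (59.3 to 304) in 8 low and 94.0 CPM (55.9 to 179) in 6 high clones. Against the fibroblast sum its r was -0.54 and rho -0.62 (adjusted permutation p 0.103 and 0.0795), which did not pass. The genes most like Cx3cl1 were Dennd1b (r = 0.82), Mitd1 (r = 0.81) and Trub1 (r = 0.79).

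**Figure D3:**
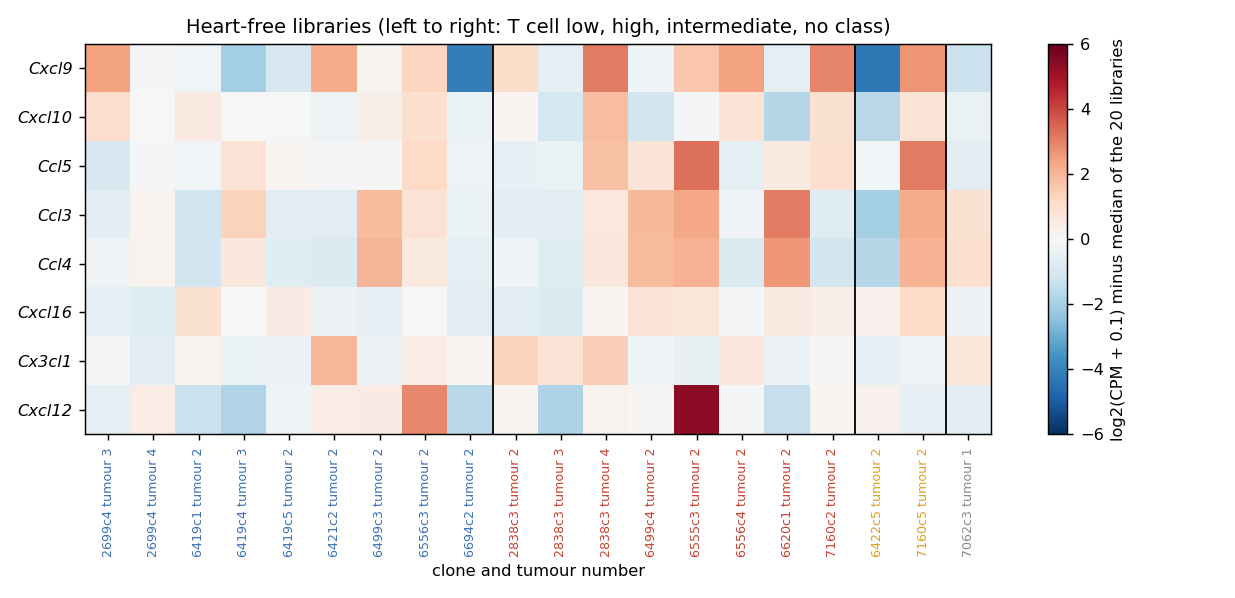
log2(CPM + 0.1) of each gene minus the median of the 20 heart-free libraries, by clone and tumour number, with T cell low, high, intermediate and unclassed libraries from left to right. Ccl3 and Ccl4 vary together, and Cxcl12 stands out in yfp_6555c3.

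Cxcl12 (ENSMUSG00000061353), at chr6:117168535-117181367 on the plus strand, was low in heart-free libraries apart from a pair. Low clones had 0.359, 1.24 and 11.5 CPM and high clones 0.336, 1.60 and 65.1 CPM. The 65.1 CPM was in yfp_6555c3 and the 11.5 CPM in yfp_6556c3. The yfp_6555c3 library had a fibroblast sum of 17790 CPM and an endothelial sum of 172 CPM; those sums were at most 6201 and 32.6 CPM in the other heart-free libraries. Their part in the Cxcl12 level was not tested. Cxcl12 against the endothelial sum had r = 0.79 and rho = 0.48 (adjusted 0.0123 and 0.269), and r = 0.38 without yfp_6555c3 and yfp_6694c2, so in heart-free libraries it rests on those 2 clones together. Over all libraries of 20 clones r was 0.95 and rho 0.90 (adjusted permutation p = 0.00012 for each), and r was 0.96 without the 2 farthest clones. Those sums mix both kinds of library, between which Cxcl12 and the endothelial sum each moved. Nearest to Cxcl12 were Lox (r = 0.90), a collagen cross-linking enzyme, Gpr133 (r = 0.90) and Serpina3n (r = 0.89). Without yfp_6555c3 they were Mipep (r = 0.77), Smim15 (r = 0.75) and Lox (r = 0.74).

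The same clones were compared between their 2 kinds of library. In the 15 clones with both, Cxcl12 was higher in heart-bearing libraries in 15 of 15, with a median log2 ratio of 5.03 on the log2(CPM + 0.1) scale. Ccl3, Ccl4 and Ccl5 were higher in 14 of 15 each, with median ratios of 2.85, 2.81 and 2.55. Cxcl9, Cxcl10 and Cx3cl1 were higher in 5 of 15 each, and Cxcl16 in 6 of 15, with median ratios of -0.57, -0.35, -0.11 and -0.18. Sums of other markers moved with the kind of library as well. Those of 6 liver genes were 481 to 15887 CPM in heart-bearing and at most 241 CPM in heart-free libraries. The median endothelial sum was 191 against 13.3 CPM, the neutrophil sum 73.2 against 4.84 CPM, the fibroblast sum 4125 against 565 CPM and the pan-leukocyte sum 448 against 116 CPM. Of the 19 heart-bearing libraries 18 had a title ending in no1, read as tumour number 1, as did 1 of the 20 heart-free ones. The part of each in the chemokine levels was not tested. The comparison between classes was therefore read in each kind as well as over all.

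Over all libraries of a clone, none of the 8 genes passed the test between 6 high and 9 low clones. In the edgeR quasi-likelihood test the log2 differences, high minus low, were 0.72 ± 0.77 for Cxcl9 and -0.31 ± 0.37 for Cxcl10 (± SE throughout). Cxcl16 differed by 0.12 ± 0.17, Cx3cl1 by -0.20 ± 0.32 and Cxcl12 by 0.76 ± 0.61. Ccl5 differed by 0.44 ± 0.48, Ccl3 by -0.07 ± 0.60 and Ccl4 by 0.01 ± 0.56. The adjusted p-values ran from 0.571 (Cxcl12) to 0.994 (Ccl4). Of 18551 genes tested 0 passed (0%), 2176 (11.7%) had an unadjusted p under 0.05, and none of the 8 genes was among them. Without yfp_2838c3, 16 genes passed, and without yfp_6421c2, 1 gene. DESeq2 called 102 genes higher and 54 lower over all clones, and no member among them. The median over the 8 genes was 0.06, beside -0.01 over all genes tested.

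In heart-free libraries 7 members could be tested in 6 high and 8 low clones. Cxcl9 differed by 1.16 ± 0.81, Ccl3 by 1.24 ± 0.67 and Ccl4 by 1.15 ± 0.72. Cxcl16 differed by 0.39 ± 0.27, Cxcl10 by -0.04 ± 0.40 and Cx3cl1 by -0.12 ± 0.41. Cxcl12 differed by 2.25 ± 1.13 (adjusted p = 0.395), and by -0.94 without yfp_6555c3. The smallest adjusted p of the 7 was 0.395. The median pan-leukocyte sum was 120 CPM in low and 222 CPM in high libraries, and its part in these differences was not tested. Of 15635 genes 0 passed (0%) and 2095 (13.4%) had an unadjusted p under 0.05, with none of the members among them. Without yfp_2838c3, 37 genes passed, and without yfp_6694c2, 1 gene. DESeq2 called 242 genes higher and 135 lower over all heart-free clones. It gave Ccl5 1.73 ± 0.73 (adjusted p = 0.206) and gave no p for Cxcl12.

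In heart-bearing libraries of 6 high and 8 low clones, Cx3cl1 differed by -0.54 ± 0.23 (p = 0.0348, adjusted p = 0.466 in edgeR), which did not pass. Its levels were 54.4, 68.1 and 146 CPM in low and 53.3, 56.7 and 74.3 CPM in high libraries, and they overlapped. Cxcl10 differed by -0.67 ± 0.40, Ccl5 by 0.15 ± 0.51 and Cxcl12 by 0.52 ± 0.43. In Cxcl9, low libraries had 0.354, 2.40 and 27.1 CPM and high libraries 0.982, 2.64 and 12.8 CPM. For Ccl3 they had 2.61, 6.53 and 50.8 CPM against 3.84, 9.31 and 24.6 CPM, the 50.8 CPM being yfp_6556c3. Both genes overlapped between the classes. For Cxcl12 the low libraries had 4.46, 51.8 and 68.2 CPM and the high libraries 39.9, 67.3 and 71.5 CPM. The sign was opposite to that in heart-free libraries for Cxcl9 at -0.58 ± 0.82, Ccl3 at -0.39 ± 0.61, Ccl4 at -0.28 ± 0.55 and Cxcl16 at -0.13 ± 0.15, and the difference between the kinds was not tested. The heart sum was 152 to 4893 CPM in low and 2553 to 4872 CPM in high libraries. The 6 libraries with the highest heart sums, described above, were mostly of high clones. The part of the heart sum in these values was not tested. Of 17313 genes 0 passed (0%) and 1851 (10.7%) had an unadjusted p under 0.05.

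**Figure D4:**
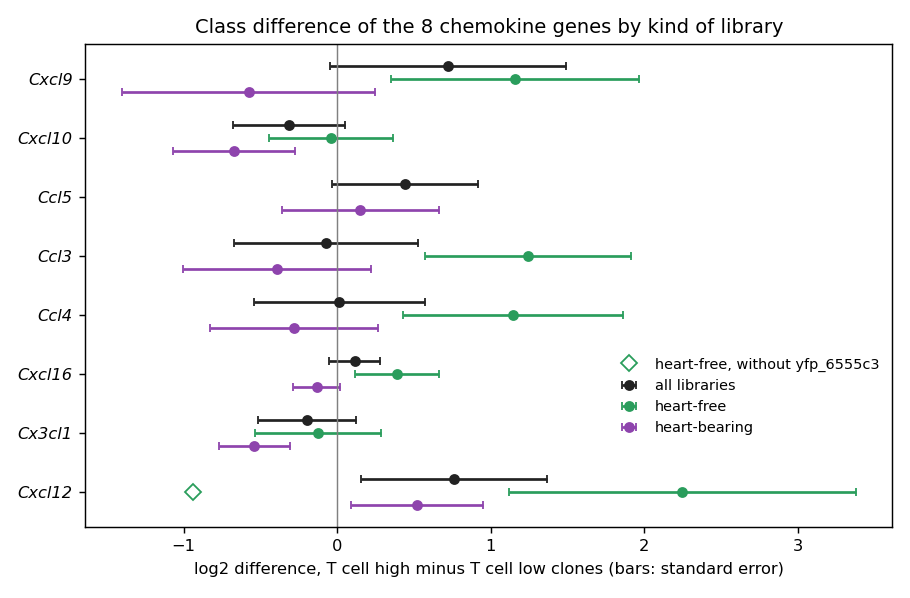
log2 difference of T cell high minus T cell low clones for each gene with its standard error, over all, heart-free and heart-bearing libraries; Ccl5 has no heart-free value. Cxcl9, Ccl3, Ccl4 and Cxcl16 are above 0 in heart-free and below 0 in heart-bearing libraries, and the open diamond gives heart-free Cxcl12 without yfp_6555c3.

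The 2 intermediate clones differed from the low clones by 0.58 ± 0.23 for Cxcl16 (p = 0.0217, adjusted p = 0.879 in edgeR), and the other members by at most 0.84 in size, for Ccl5. In heart-free libraries alone Ccl5 differed by 2.56 ± 0.98 (adjusted p = 0.655) and Cxcl16 by 0.76 ± 0.38 (adjusted p = 0.798). The 2 clones behind the Ccl5 value had 0.0749 (yfp_6422c5) and 1.58 CPM (yfp_7160c5), so the value rests on yfp_7160c5. Their pan-leukocyte sums there were 30.4 and 693 CPM, and the part of those sums in the value was not tested. The filter on low counts kept Ccl5 in this fit, where the smallest group was 2 clones. The same filter left it out of the heart-free test of high against low clones. Of 20028 genes 1 passed (0.00499%), H2-M2, and 1009 (5.04%) had an unadjusted p under 0.05. Without yfp_6422c5, where the lone intermediate clone is assumed to vary like the other groups, 98 genes were called higher and 1 lower, and no member among them. Against the high clones 0 genes passed (0%), 414 (2.07%) had an unadjusted p under 0.05, and no member was among them. The 2 clones were far apart, and for 6 of the 8 genes the difference from low clones took opposite signs with each of them alone.

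A low and a high clone of one parent line were paired in yfp_6499c3 with yfp_6499c4 and in yfp_6556c3 with yfp_6556c4, with 1 heart-free library each, which allows no test. In the heart-free libraries of the first pair Ccl3 was 4.06 CPM in the low and 4.25 CPM in the high clone, and Cxcl9 was 4.68 and 3.53 CPM. In those of the second pair Cxcl9 was 10.4 CPM in the low and 22.9 CPM in the high clone, whereas Cxcl12 was 11.5 and 1.41 CPM and Ccl3 1.95 and 0.866 CPM. Cxcl16 was 68.0 and 63.9 CPM in the second pair. In their heart-bearing libraries the order of Cxcl9 was the other way round in both pairs, at 1.26 CPM in the low and 2.61 CPM in the high clone of the first, and 6.96 and 2.98 CPM in the second. Cxcl12 there was 4.46 and 66.0 CPM in the first pair and 68.2 and 70.0 CPM in the second.

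The wider chemokine system was described by 6 lists holding 59 genes: other lymphocyte chemokines, chemokine receptors, atypical receptors, chemokine-processing proteases and genes of interferon gamma and NF-kB induction. Over all libraries 50 could be tested and none passed. Those with an unadjusted p under 0.05, as for 11.7% of all genes, are named after their values were seen. Ackr4 (1.06 ± 0.37), Ctss (0.83 ± 0.37) and Irf8 (0.71 ± 0.26) were higher in high clones. Ackr4 was at 0.240 CPM or below in heart-free libraries, against a median of 0.756 CPM in heart-bearing ones. Ccl20 (-0.73 ± 0.33) and Ifngr2 (-0.20 ± 0.09) were lower in high clones. In heart-free libraries 42 were tested, none passed, and 9 were higher and 0 lower with an unadjusted p under 0.05, a level that 13.4% of all genes tested reached in either direction. Of the 16 receptors 8 could be tested there, and all 8 differences were above 0, as for Ccr1 at 1.93 ± 0.69 and Cx3cr1 at 2.23 ± 0.90. The median over all genes tested there was -0.002. The filter on low counts left out the other receptors, and it can keep genes through the class where they are high. In heart-bearing libraries 14 receptors could be tested, with 6 above and 8 below 0, and Ccr1 was at -0.17 ± 0.36 and Cx3cr1 at -0.48 ± 0.48. Both receptors are carried by leukocytes, and the part of the leukocyte markers given above was not tested. Of all list genes 51 were tested in heart-bearing libraries and 0 passed. There 1 was higher and 7 lower with an unadjusted p under 0.05, beside 10.7% of all genes.

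The most abundant genes of the lists were as follows. The protease Furin averaged 312 and Adam10, a sheddase of Cxcl16 and Cx3cl1, 251 CPM over libraries. Ifngr1, a subunit of the interferon gamma receptor, averaged 164 and its kinase Jak1 197 CPM. Tnfrsf1a was at 152 and Ikbkb at 144 CPM. The scavenging receptor Ackr3, which binds Cxcl12, averaged 53.2 CPM and Ackr2 1.03 CPM. Among chemokines Cxcl14 averaged 27.7 and Ccl8 22.7 CPM, and the receptor Ccr1 averaged 17.9 CPM. The interferon gamma gene Ifng was at 0 in 17 of the 20 heart-free libraries.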

How the data were processed

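Per the labels' protocols, RNA of sorted tumour cells was extracted with a column kit and libraries were prepared with an NEB kit. Per the submitters' processing notes, STAR and featureCounts on mm10 were used; their versions, the annotation and the strand setting are not stated here, so reads of overlapping genes may be assigned to a neighbour. The deposited file holds raw counts per gene, as whole numbers. CPM is the count over the library total.

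The unit of replication was the clone, with its libraries summed, so a p-value measures spread between such sums, which may be technical. The table was filtered with filterByExpr, scaled with TMM and tested with edgeR 4.0.16 (quasi-likelihood) in R 4.3.3, with Benjamini-Hochberg adjustment over all genes tested and a threshold of 0.05. Heart-free libraries had under 10 CPM of the 4 heart genes. DESeq2 1.42.0, limma 3.58.1 and exact permutation were alternatives. Log2 CPM used a prior count of 2. Steps were tested on simulated data. Named genes were all 8 members, list genes that passed or otherwise the 2 most abundant of each list, and the 3 genes most like each member. A gene that this rule names is not reported here. The members, lists and the division by heart genes were chosen with earlier results of these data known. Gene coordinates are from GENCODE M21 on GRCm38. The upper limit given for an undetected gene covers counting error only. Each ± is a standard error from a fit on clone sums and includes the spread between them.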

Additional observations from a re-analysis of the deposited data

Results flagged for a closer look

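Among 32 sets of clone values (8 genes, low and high clones, all or heart-free libraries), 9 had a clone far from the rest by Dixon's test on CPM. The chance rate of that test, 1 in 20, holds for independent sets of normal values. These sets overlap and CPM is skewed, so the 9 cannot be set against that rate. Over all libraries of the low clones, Cxcl9 was 23.5 CPM in yfp_6421c2 against 0.273 to 10.1 in the others, and Cx3cl1 was 227 CPM in the same clone against 54.4 to 107.8. Ccl3 was 30.0 CPM and Ccl4 11.0 CPM in yfp_6556c3, against at most 11.7 and 3.83 CPM. In heart-free low clones, Ccl4 was 2.21 CPM in yfp_6499c3, Cx3cl1 304 CPM in yfp_6421c2 and Cxcl12 11.5 CPM in yfp_6556c3. In heart-free high clones, Ccl5 was 1.81 and Cxcl12 65.1 CPM in yfp_6555c3, against at most 0.277 and 1.63 CPM in the others.

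In the heart-bearing library yfp_6883c1, whose label gives no class, Cxcl10 was 28.3 CPM and Ccl5 9.80 CPM, above every T cell low library (at most 13.1 and 3.33 CPM). Neither value entered a comparison.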

How the results depend on the processing

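None of the 8 genes passed in any fit run here that gave it an adjusted p (DESeq2 gave none to Cxcl12 in heart-free libraries, at 3.27). The sign of some small differences moved, and the cause was not tested. High minus low over all libraries, heart-bearing libraries alone gave Cxcl9 -0.58, Ccl4 -0.28 and Cxcl16 -0.13 (log2). For Ccl3 the sign turned to 0.25 in limma-voom with the tumour number as a replicate block, and to 0.26 in the exact permutation test. For Ccl4 it turned to -0.023 without a filter on low counts and to -0.23 with clones of one line summed. Heart-free libraries alone gave, for intermediate minus high, Ccl3 -0.44 and Ccl4 -0.30, and for intermediate minus low, Cxcl12 -0.72. Libraries were compared by their deviations in log2 CPM from the class means. Those of one tumour number but other class correlated above 0.1 in 81 of 93 pairs (-0.72 to 0.90, median 0.46). Those of other numbers and clones did so in 75 of 300 pairs (median -0.50). The number also follows the kind of library. Not every pair passed 0.1, so the numbers were not taken as a pairing, and the block changed no call.

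Leaving out 1 clone at a time, high minus low over all libraries ran from -0.41 to 0.63 for Ccl3, -0.36 to 0.63 for Ccl4 and -0.41 to 0.088 for Cx3cl1. In heart-free libraries it ran from -0.24 to 0.16 for Cxcl10, -0.39 to 0.35 for Cx3cl1 and -0.94 (without yfp_6555c3) to 3.33 (without yfp_6556c3) for Cxcl12. Leaving out an intermediate clone, intermediate minus low ran from -1.92 to 1.52 for Cxcl9, -1.14 to 0.047 for Cxcl10, -0.60 to 1.54 for Ccl5, -1.41 to 0.74 for Ccl3, -0.57 to 0.76 for Ccl4 and -0.35 to 0.80 for Cxcl12. Intermediate minus high ran from -2.63 to 0.80 for Cxcl9, -0.81 to 0.37 for Cxcl10, -1.03 to 1.11 for Ccl5, -1.31 to 0.82 for Ccl3, -0.57 to 0.76 for Ccl4 and -1.09 to 0.048 for Cxcl12.

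Genes passing numbered 0 in edgeR but 156 in DESeq2 over all libraries, and 377 in heart-free ones; without yfp_2838c3 edgeR called 16 and 37, the upper ends of ranges from 0. Relations with marker sums that passed by Pearson r numbered 3 of 24 in heart-free clones and 7 over all libraries, which mix both kinds. Over all libraries Ccl3, Ccl4 and Cxcl12 passed with the pan-leukocyte sum. Cxcl9, Ccl5 and Cxcl12 passed there with the endothelial sum, and Ccl5 with the fibroblast sum. In heart-free clones Ccl5 against the fibroblast sum had r = 0.58 (adjusted permutation p = 0.0811), which did not pass. The number of clones and, for Ccl5, the few counts limit precision.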

Other observations

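The 3 libraries without a class came from 3 clones. In yfp_6883c1, which is heart-bearing, Cxcl9 was 10.4, Ccl3 3.01, Ccl4 1.15, Cxcl16 25.4, Cx3cl1 70.5 and Cxcl12 30.0 CPM, and its Cxcl16 was the lowest of all 39 libraries. Its sister clone yfp_6883c4, also heart-bearing, had Cxcl9 at 14.9, Cxcl10 at 11.1, Ccl5 at 1.775 and Cxcl16 at 48.3 CPM. In yfp_7062c3, which is heart-free, Cx3cl1 was 126.5, Cxcl16 52.9, Cxcl10 4.44, Ccl3 2.01 and Cxcl9 1.69 CPM.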
